A study of Mus musculus with 9 samples.

Results

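The integrated stress response was followed through 38 genes, picked by name from the 18049 genes of the table: 15 kinases and factors that sense and carry the response, 11 genes of amino acid transport and synthesis, and 12 cytosolic tRNA synthetases. All 38 were listed, and all 38 passed the filter on low values of the test (at least 1 FPKM in at least 3 libraries; FPKM is the fragment count scaled to gene length and sequencing depth). The cells were bone marrow-derived macrophages of C57BL/6 mice aged 8 weeks, held in RPMI medium. They were exposed for 6 h to 1 µM 15d-PGJ2, an electrophilic cyclopentenone prostaglandin, to 1 µM of the related compound labelled 15d-PGJ2-PC, or to medium alone as control, with 3 libraries in each group and 9 in all. PC is not spelled out in the labels, and the structure of that compound is therefore not described. Whether the 3 libraries of a group came from separate animals or cultures is not stated, so p-values measure spread that may be technical. The control is labelled as medium, with no vehicle named.

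The integrated stress response lowers general protein synthesis when a kinase phosphorylates the translation factor eIF2. HRI (Eif2ak1), PERK (Eif2ak3) and GCN2 (Eif2ak4) answer to heme shortage or oxidative stress, to unfolded protein in the endoplasmic reticulum and to uncharged tRNA, and PKR (Eif2ak2) answers to double-stranded RNA. The mRNA of the transcription factor ATF4 is then translated better, and ATF4, with partners of the C/EBP family, raises genes that import and make amino acids, charge tRNAs and end the response again. In macrophages the same arm is known to work beside the heat shock and antioxidant responses when electrophiles damage proteins. RNA levels do not show eIF2 phosphorylation or ATF4 protein, neither of which was measured here.

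Libraries held about 5.28 M reads each by the size of the smallest steps between low values, with summed FPKM of 469548 to 492998 and 10876 to 11026 genes at 1 FPKM or more. At that depth the 38 genes had from about 14 reads (Pycr1) to about 5726 reads (Aars) in a library. The annotated spans of 17 of them overlap another gene, so their values may hold reads of that gene. The longest overlaps were Eif2ak1 with Ankrd61 (4431 bases), Aars with Ddx19b (3974), Aldh18a1 with Gm15801 (2837) and Nupr1 with Gm39087 (2225). Cebpg overlaps Gm45095 by 1084 bases and Ppp1r15a overlaps Tulp2 by 730. The 9 macrophage markers, among them Csf1r, Adgre1 and Cd68, were all present and summed to 6503 to 6704.2 FPKM in the controls, 4968.2 to 5331.3 with 15d-PGJ2 and 5814 to 5991 with 15d-PGJ2-PC. Lyz2 alone averaged 3940 FPKM in the controls, so these sums mostly follow it. All 9 were called lower with 15d-PGJ2 and 6 with 15d-PGJ2-PC (adjusted p under 0.05), against 25% and 14.1% of all tested genes. Fcgr1 fell most, from a mean of 66.1 to 27.2 and 34.5 FPKM. Summed levels of markers of other tissues were higher in controls, at 36.4 to 43.3 FPKM for 8 stromal genes (7.68 to 10.5 in treated libraries), 25.3 to 30 for 7 epidermal genes (2.98 to 6.52) and 19.6 to 31.8 for 4 erythroid genes (at most 0.91). Of the neutrophil markers, 7 genes summed to 32.1 to 34.5 FPKM in the controls, 15.9 to 19.8 with 15d-PGJ2 and 24.3 to 29.6 with 15d-PGJ2-PC, and 3 lymphoid markers stayed at or under 0.83. Single markers went against these sums: epidermal Sfn was higher with 15d-PGJ2 (mean 3.28 FPKM in controls and 5.0 with the compound, adjusted p = 0.0318) and neutrophil Mpo with both compounds (mean 0.093 FPKM in controls, 1.69 and 1.99 with the compounds, adjusted p = 7.74e-05 and 7.91e-05). Mpo was at 0.07 to 0.14 FPKM in controls and passed the filter only through the treated groups, so its call is not independent of that filter. None of the listed markers was at 0 in all 9 libraries. Their part in the results below was not tested, and in such bulk samples fewer cells of a type and less RNA per cell cannot be told apart.

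Promoters of several of these genes carry the sequence that ATF4 and C/EBP proteins bind together. The core TGATGNAA was searched on both strands in RefSeq windows (GRCm38.p6) from 250 bases before to 50 bases after each annotated start. Of 33 members with a window, 11 held it, against 2.83% of 9022 tested genes and 3.97% of all 32851 windows. By class, 4 of 15 kinases and factors, 2 of 10 genes of amino acid transport and synthesis and 5 of 8 synthetases held it. Slc7a5, Nars, Cars, Wars and Lars had no window. Matches are shown for genes of each class, called and not called alike, so that the letters can be compared; not every gene with a match is printed. Each stretch of 30 bases runs 5′ to 3′ on the gene's strand, with the matched letters in capitals. A match is a description of the letters, not evidence of binding.
Asns, chr6:7693214-7693243, minus strand: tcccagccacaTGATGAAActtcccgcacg
Atf3, chr1:191183425-191183454, minus strand: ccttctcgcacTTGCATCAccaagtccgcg
Nupr1, chr7:126625562-126625591, minus strand: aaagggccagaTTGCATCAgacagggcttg
Chac1, chr2:119351038-119351067, plus strand: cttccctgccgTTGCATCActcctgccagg
Trib3, chr2:152344028-152344057, minus strand: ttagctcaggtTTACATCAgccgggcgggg
Pycr1, chr11:120643833-120643862, minus strand: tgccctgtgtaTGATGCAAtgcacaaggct
Gars, chr6:55037960-55037989, plus strand: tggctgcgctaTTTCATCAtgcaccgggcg
Tars, chr15:11399655-11399684, minus strand: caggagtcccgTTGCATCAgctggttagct
Yars, chr4:129189895-129189924, plus strand: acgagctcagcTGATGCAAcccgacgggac
Iars, chr13:49682126-49682155, plus strand: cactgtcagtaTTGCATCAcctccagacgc

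The capitals read TTGCATCA in Atf3, Nupr1, Chac1, Tars and Iars, its reverse complement TGATGCAA in Pycr1 and Yars, and a variant in the others. The match began 110 bases upstream of the start in both Atf3 and Nupr1, 193 bases upstream in Chac1 and 23 bases upstream in Asns. Of the 11 members with a match, 5 were called higher with 15d-PGJ2 and 5 with 15d-PGJ2-PC (median log2 fold change 0.295 and 0.301). Of the 22 with a window but no match, 12 were called higher with each compound (median 0.175 and 0.185). Over all 11309 tested genes, 22.2% were called higher with 15d-PGJ2 and 13.8% with 15d-PGJ2-PC.

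With 15d-PGJ2, 20 of the 38 genes rose and 3 fell against control, and 15 did not pass the test (median log2 fold change 0.21). Over all 11309 tested genes, 22.2% rose and 25% fell (47.2% called in either direction), and the median was -0.02. Treated and control libraries did not overlap for 22 members on the higher and 4 on the lower side, against 26.3% and 28.8% of all tested genes (55.1% together). With 15d-PGJ2-PC, 20 rose, 2 fell and 16 did not pass (median 0.20), against 13.8% and 14.1% of all tested genes (27.8% together) and a median of -0.004. Here libraries did not overlap for 21 members on the higher and 2 on the lower side, against 20.5% and 21.3% of all tested genes (41.8% together). A gene was called at an adjusted p under 0.05 from limma's moderated test on log2(FPKM + 1), which gave every adjusted p below. Of the genes, 19 were called higher and 2 lower with both compounds, 1 was called higher with 15d-PGJ2 alone (Psph) and 1 with 15d-PGJ2-PC alone (Mars), and none went in opposite directions. Both comparisons use the same 3 control libraries, so their shared calls are not independent. Calls shared by the compounds, or opposite between them, were not counted over all tested genes. Whether the shared calls of the 38 genes are many or few therefore cannot be said.

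**Figure D1:**
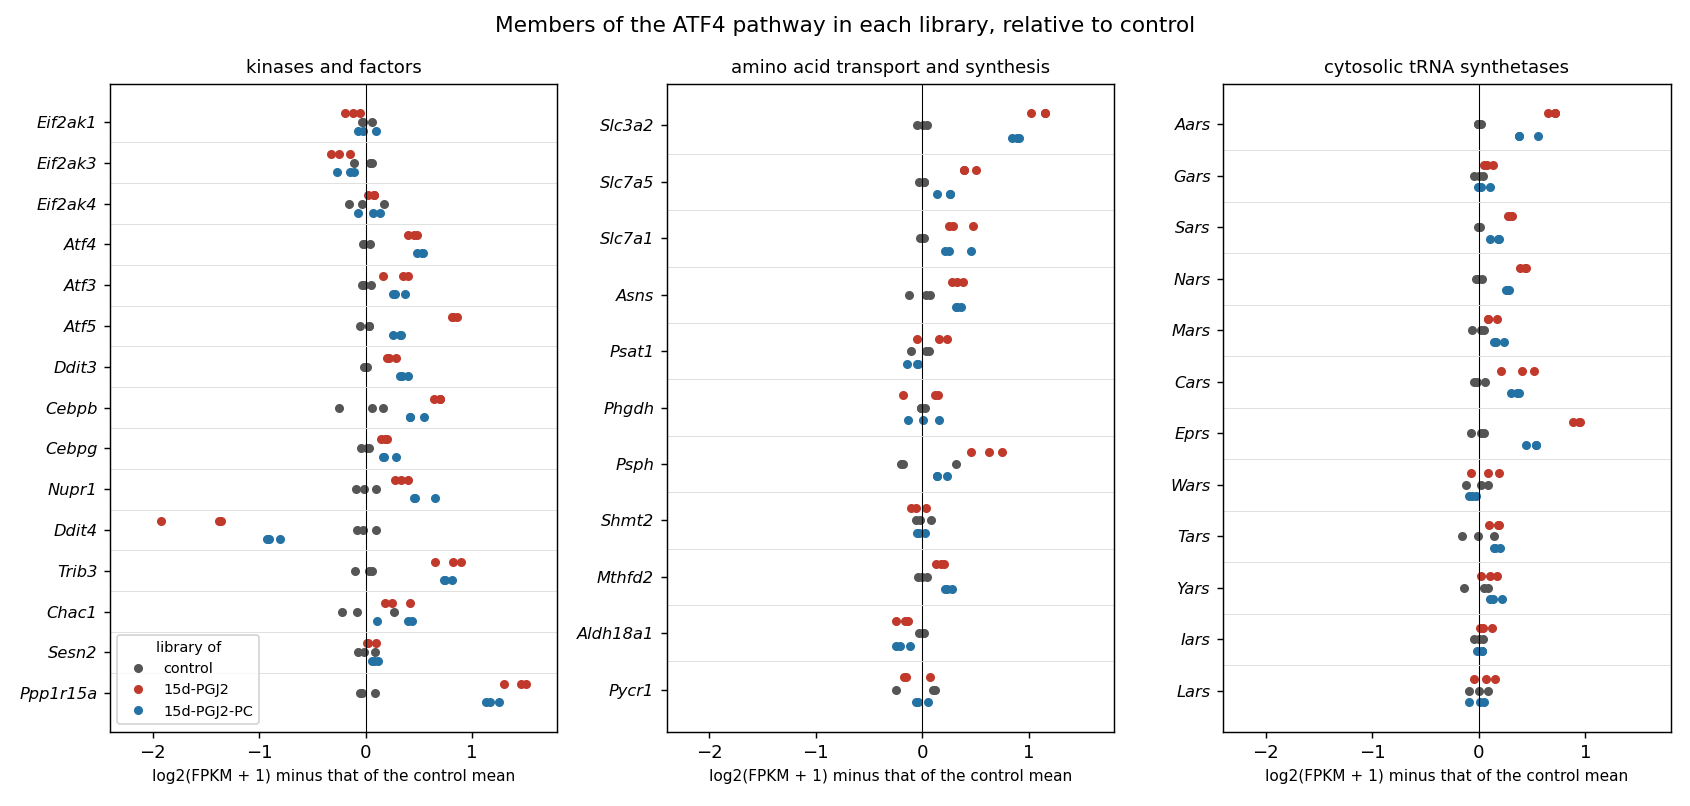
Level of each of the 38 genes in each library as log2(FPKM + 1) minus that of the control mean (x axis), in 3 panels by class; each point is 1 library and colours mark the groups. Ppp1r15a and Slc3a2 lie farthest to the right in both treated groups, Ddit4 farthest to the left, and most synthetases lie near 0.

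Among the kinases and factors, 9 of 15 rose with each compound, 2 fell with 15d-PGJ2 and 1 fell with 15d-PGJ2-PC (median log2 fold change 0.295 and 0.304). The shares over all tested genes were 22.2% higher and 25% lower with 15d-PGJ2, and 13.8% and 14.1% with 15d-PGJ2-PC. None of the 3 sensing kinase genes passed as higher. Eif2ak1 was at 28.0, 29.9 and 28.2 FPKM in the controls, 26.4, 25 and 27.6 with 15d-PGJ2 and 30.8, 27.3 and 28.2 with 15d-PGJ2-PC. Its differences from control did not pass (adjusted p = 0.124 and 0.988), and the 15d-PGJ2 interval ran from -0.25 to 0.01. Eif2ak4 lay between 5.93 and 7.67 FPKM in all 9 libraries, with the groups overlapping (adjusted p = 0.625 and 0.752).

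Eif2ak3, the kinase gene of the endoplasmic reticulum, was at 5.95, 6.82 and 6.73 FPKM in the controls, 4.99, 5.32 and 5.76 with 15d-PGJ2 and 5.97, 5.23 and 5.76 with 15d-PGJ2-PC. It passed as lower with 15d-PGJ2 (log2 fold change -0.24, SE 0.09, adjusted p = 0.0459) and not with 15d-PGJ2-PC (-0.17, adjusted p = 0.181). About 72 to 98 reads lie behind each of these values. The 15d-PGJ2 call was lost in 10 of 17 alternatives, among them the replicate block (adjusted p = 0.0624) and leaving out control replicate 2 (0.136) or 3 (0.119), 15d-PGJ2 replicate 1 (0.135) or 2 (0.0965), or 15d-PGJ2-PC replicate 1 (0.0543) or 3 (0.0592).

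All 7 transcription factor genes of the response rose with both compounds, against 22.2% and 13.8% of all tested genes. Atf4 (Entrez 11911, chromosome 15, 80255184 to 80257545), the central factor, stood at 186, 196 and 188 FPKM in the controls, 251, 267 and 261 with 15d-PGJ2 and 274, 267 and 276 with 15d-PGJ2-PC. Every treated library lay above every control library. The means of 259.7 ± 7.96 and 272 ± 4.83 FPKM (SD, n = 3) were 1.37-fold and 1.43-fold the control mean of 190.1 ± 5.27 (adjusted p = 1.58e-06 and 2.25e-06).

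Ddit3, which encodes CHOP, a factor linked to cell death under long stress, was at 222, 224 and 219 FPKM in the controls, 254, 258 and 270.3 with 15d-PGJ2 and 281, 276 and 293 with 15d-PGJ2-PC. It was already abundant without treatment, and it rose 1.18-fold and 1.28-fold, with SDs of 2.29 to 8.58 FPKM within groups and no treated library overlapping a control (adjusted p = 0.000233 and 2.87e-05). Ddit3 (chromosome 10, 127290793 to 127296291) overlaps the end of the synthetase gene Mars (127296221 to 127311786) by 71 bases, and reads there may be counted to either gene.

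Atf5, a stress factor with a translational control like that of ATF4, showed the clearest order of the groups: 112, 112 and 105 FPKM in the controls, 137, 138 and 131 with 15d-PGJ2-PC, and 195, 192 and 199 with 15d-PGJ2. No group overlapped another. It rose 1.78-fold with 15d-PGJ2 (log2 fold change 0.83, SE 0.04, adjusted p = 3.25e-08) and 1.24-fold with 15d-PGJ2-PC (0.30, SE 0.04, adjusted p = 0.000146). Its annotated span overlaps those of Nup62 (571 bases) and Il4i1b (289 bases).

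Cebpb, a C/EBP partner of ATF4 and a macrophage activation factor, was at 171, 159.7 and 128 FPKM in the controls, 239.6, 249 and 248 with 15d-PGJ2 and 205, 205 and 224 with 15d-PGJ2-PC, with log2 fold changes of 0.69 and 0.47. Atf3, a factor induced by ATF4, rose by 0.30 with each compound, from a mean of 175 to 216 and 216 FPKM. Nupr1, a small stress-induced chromatin protein gene, rose from 90.1 to 114 with 15d-PGJ2 and 130.1 FPKM with 15d-PGJ2-PC. Cebpg, which encodes the usual dimer partner of ATF4, rose least, from 14.3 to 16.3 and 16.6 FPKM (adjusted p = 0.0264 and 0.0235). The Cebpg calls were lost without control replicate 2 (0.0903 and 0.0845), without 15d-PGJ2 replicate 2 (0.0773) or 3 (0.0648) for 15d-PGJ2, and without 15d-PGJ2-PC replicate 3 (0.0896) for 15d-PGJ2-PC.

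Of the 5 stress effectors, Ppp1r15a and Trib3 rose, Ddit4 fell, and Chac1 and Sesn2 did not pass with either compound. Ppp1r15a encodes GADD34, which brings a phosphatase to eIF2 and ends the response. It was at 18.3, 20.0 and 18.1 FPKM in the controls, 47.8, 55.0 and 53.2 with 15d-PGJ2 and 43.5, 42.4 and 46.0 with 15d-PGJ2-PC. These were the largest rises among the 38 genes in both comparisons, 2.77-fold (log2 fold change 1.42, SE 0.06, adjusted p = 2.98e-08) and 2.34-fold (1.18, SE 0.06, adjusted p = 5.22e-07). Trib3, a pseudokinase that restrains ATF4 and CHOP, was at 42.5, 43.2 and 38.8 FPKM in the controls, 65.8, 73.8 and 78.2 with 15d-PGJ2 and 73.3, 70.2 and 70.0 with 15d-PGJ2-PC (1.75-fold and 1.71-fold).

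Ddit4, which encodes REDD1, an inhibitor of mTORC1 that is often raised by ATF4, went the other way. It was at 23.7, 21.8 and 20.8 FPKM in the controls, 7.86, 5.11 and 7.99 with 15d-PGJ2 and 11.2, 11.3 and 12.2 with 15d-PGJ2-PC, and no group overlapped another. Its mean was 3.16-fold lower with 15d-PGJ2 (log2 fold change -1.55, SE 0.13, adjusted p = 3.4e-06) and 1.91-fold lower with 15d-PGJ2-PC (-0.88, SE 0.13, adjusted p = 0.000565), the largest falls among the 38 genes. Chac1, an enzyme that breaks down glutathione, was at 9.19, 6.29 and 7 FPKM in the controls, 8.61, 10.3 and 9.10 with 15d-PGJ2 and 8.13, 10.2 and 10.5 with 15d-PGJ2-PC. Control replicate 1 overlapped the treated libraries, and without it Chac1 passed in both comparisons (adjusted p = 0.0156 and 0.0195, from 0.0938 and 0.0958 with it). Chac1 also passed with 15d-PGJ2-PC once replicate 1 of that group was left out (0.0456). Sesn2, a leucine sensor that restrains mTORC1, lay between 38.6 and 43.9 FPKM in all libraries (adjusted p = 0.463 and 0.252).

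**Figure D2:**
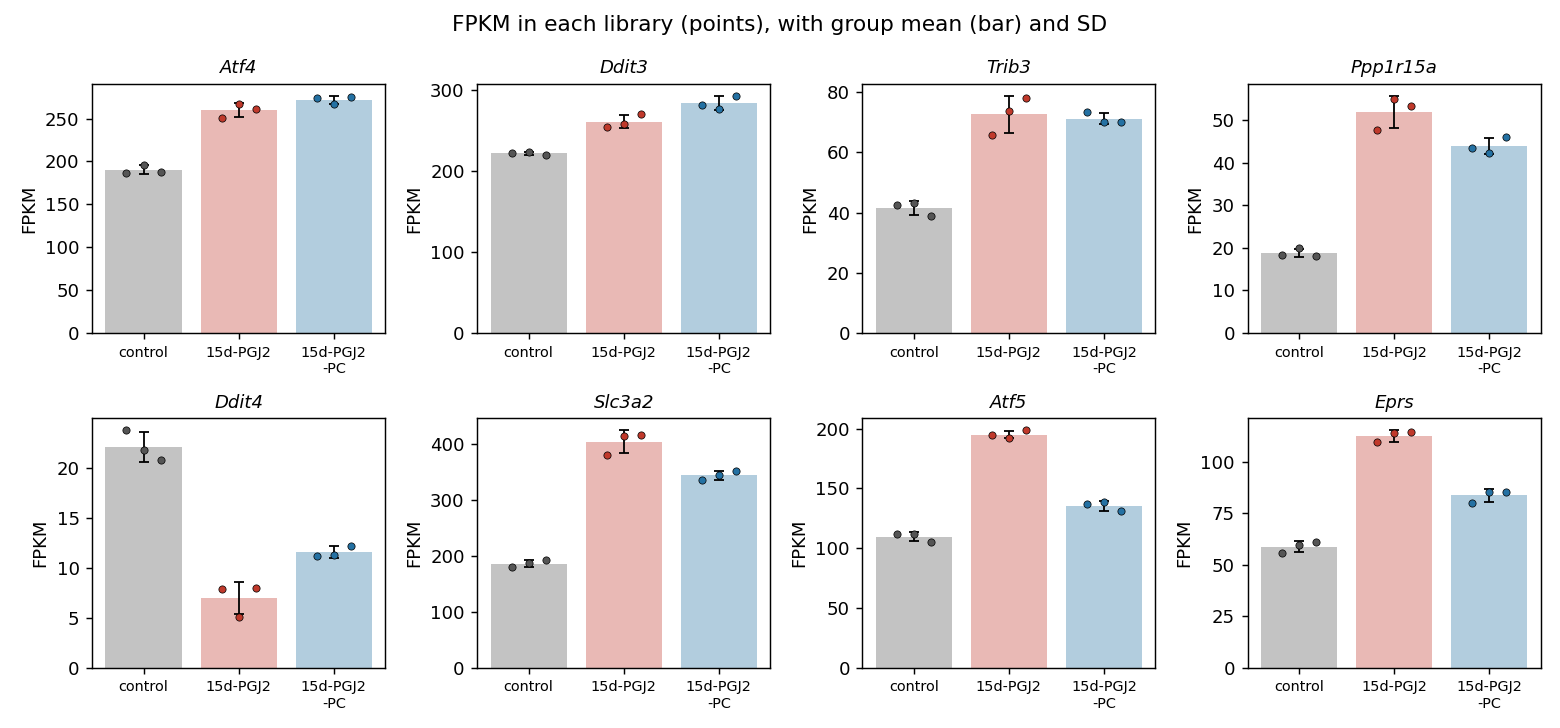
FPKM of 8 genes (y axes, from 0) in control, 15d-PGJ2 and 15d-PGJ2-PC libraries; points are libraries, bars are group means and error bars are SDs (n = 3). Atf4 and Trib3 stand at similar heights under both compounds, Atf5 and Eprs are higher with 15d-PGJ2 than with 15d-PGJ2-PC, and Ddit4 is lowest with 15d-PGJ2.

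Among genes of amino acid supply, the transporters all rose, while of 8 synthesis genes 3 rose with 15d-PGJ2 and 2 with 15d-PGJ2-PC. Of the 11 genes, 6 rose and 1 fell with 15d-PGJ2, and 5 rose and 1 fell with 15d-PGJ2-PC (median log2 fold change 0.17 and 0.19). The shares over all tested genes were 22.2% and 25% with 15d-PGJ2, and 13.8% and 14.1% with 15d-PGJ2-PC. All 3 transporter genes rose with both compounds. Slc3a2 encodes CD98, the heavy chain that carries several amino acid transporters to the membrane. It was at 179.7, 188 and 192 FPKM in the controls, 380.2, 415 and 417 with 15d-PGJ2 and 336, 345 and 351 with 15d-PGJ2-PC, so that no group overlapped another. Its rises were 2.17-fold (adjusted p = 9.63e-09) and 1.85-fold (adjusted p = 2.09e-07).

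Slc7a5, the LAT1 light chain that imports leucine in exchange for glutamine, is the partner of Slc3a2 and rose with both compounds. It was at 32.4, 31.3 and 32.2 FPKM in the controls, 42.2, 45.7 and 42.2 with 15d-PGJ2 and 38.5, 35.4 and 38.4 with 15d-PGJ2-PC (log2 fold change 0.43 and 0.22). Slc7a1, the arginine and lysine transporter CAT1, rose from 13.3 ± 0.19 to 17.0 ± 1.53 and 16.7 ± 1.61 FPKM (adjusted p = 0.00546 and 0.0157). The 15d-PGJ2-PC call of Slc7a1 was lost without replicate 3 of that group (0.0588).

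Asns, asparagine synthetase and a standard target of ATF4, was at 46.2, 53.2 and 51.7 FPKM in the controls, 61.2, 66.0 and 63.2 with 15d-PGJ2 and 65, 62.8 and 63.3 with 15d-PGJ2-PC. Both rises were 1.26-fold, and all treated libraries lay above all controls (adjusted p = 0.000553 and 0.000994). Mthfd2, an enzyme of mitochondrial folate metabolism, rose from 63.7 ± 1.93 to 71.9 ± 1.90 and 75.4 ± 1.74 FPKM.

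Of the 3 enzymes that make serine from a glycolytic intermediate, Psph was the one that passed. Phgdh, the entry enzyme, was at 11.8, 12.1 and 11.9 FPKM on average in controls, 15d-PGJ2 and 15d-PGJ2-PC (adjusted p = 0.825 and 0.958), and Psat1 at 13.3, 14.5 and 12.6 (adjusted p = 0.275 and 0.574). Psph, the last enzyme, was at 7.17, 4.78 and 4.68 FPKM in the controls, 9.12, 10.03 and 7.98 with 15d-PGJ2 and 6.18, 6.67 and 6.22 with 15d-PGJ2-PC. It rose with 15d-PGJ2 (1.63-fold, adjusted p = 0.00307) and did not pass with 15d-PGJ2-PC (adjusted p = 0.348, but 0.0301 without control replicate 1). Psph had 43 to 92 reads in a library and its span overlaps that of the chaperonin gene Cct6a by 88 bases.

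Shmt2, which passes serine carbon to folate in mitochondria, lay between 24.0 and 27.4 FPKM in all libraries and did not pass. Of the proline enzymes, Aldh18a1 fell from 17.8 ± 0.31 to 15.6 ± 0.70 and 15.5 ± 0.80 FPKM (adjusted p = 0.0285 and 0.0365). The Aldh18a1 calls were lost for 15d-PGJ2 without control replicate 1 (0.0767) or 3 (0.0664) or 15d-PGJ2 replicate 2 (0.103). For 15d-PGJ2-PC the Aldh18a1 call was lost without control replicate 1 (0.0975), 2 (0.0671) or 3 (0.0849) or 15d-PGJ2-PC replicate 2 (0.119) or 3 (0.0968). Pycr1, at 0.89 to 1.43 FPKM in the 9 libraries, did not pass (adjusted p = 0.712 and 0.981), with intervals of -0.40 to 0.25 and -0.33 to 0.32 on the log2 scale.

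All synthetase genes that passed were higher than in controls. With 15d-PGJ2, 5 of 12 rose, none fell and 7 did not pass (median log2 fold change 0.14), and with 15d-PGJ2-PC 6 rose, none fell and 6 did not pass (median 0.16). Over all tested genes, 22.2% rose and 25% fell with 15d-PGJ2, and 13.8% and 14.1% with 15d-PGJ2-PC. Aars, Sars, Nars, Cars and Eprs rose with both compounds, and Mars with 15d-PGJ2-PC. These enzymes load alanine, serine, asparagine, cysteine, glutamate with proline, and methionine onto their tRNAs.

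Eprs (chromosome 1, 185361417 to 185428360), whose protein also holds back translation of inflammatory mRNAs in macrophages, rose most. It was at 55.7, 59.5 and 60.8 FPKM in the controls, 109, 114 and 114 with 15d-PGJ2 and 80.0, 85.4 and 85.6 with 15d-PGJ2-PC. The rises were 1.92-fold (log2 fold change 0.93, SE 0.05, adjusted p = 5.01e-08) and 1.43-fold (0.50, SE 0.05, adjusted p = 1.61e-05), and no group overlapped another. Aars was at 113, 114 and 116 FPKM in the controls, 179.6, 188 and 189 with 15d-PGJ2 and 149, 148 and 169 with 15d-PGJ2-PC (1.62-fold and 1.36-fold). The span of Aars overlaps that of the helicase gene Ddx19b by 3974 bases, so its value may hold reads of that gene.

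Nars, the highest of the 12 synthetases in FPKM in every group, rose from 164 ± 3.33 to 220.3 ± 4.36 and 199 ± 2.0, and Sars from 74.3 ± 0.56 to 91.1 ± 1.12 and 83.0 ± 2.59. Cars was at 24.1, 25.5 and 23.7 FPKM in the controls, 28.3, 35.5 and 32.6 with 15d-PGJ2 and 31.6, 30.4 and 32.0 with 15d-PGJ2-PC (adjusted p = 0.00166 and 0.00506). Mars was at 31.9, 34.7 and 36.3 FPKM on average and passed with 15d-PGJ2-PC (adjusted p = 0.0224), though not without control replicate 1 (0.0834) or 15d-PGJ2-PC replicate 1 (0.0838). With 15d-PGJ2 its adjusted p was 0.0796.

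Gars, Wars, Tars, Yars, Iars and Lars did not pass in either comparison, with log2 fold changes of 0.06 to 0.16 with 15d-PGJ2 and -0.06 to 0.17 with 15d-PGJ2-PC. Wars, which interferon also raises in macrophages, averaged 30.5, 32.1 and 29.3 FPKM. Quantile normalization called Gars, Mars and Tars as well with 15d-PGJ2 (adjusted p = 0.0126, 0.0192 and 0.0382), which made 8 synthetases. Tars also passed without control replicate 2, with 15d-PGJ2 (0.0134) and with 15d-PGJ2-PC (0.02).

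Set directly against each other at the same dose and time, the compounds differed in 11 of the 38 genes. In 15d-PGJ2-PC libraries 9 genes were lower and 2 higher than with 15d-PGJ2, and 27 did not pass (median log2 fold change -0.02). Over all tested genes 8.3% were lower and 12.3% higher (20.6% together), with a median of 0.02. The libraries of the compounds did not overlap for 4 members higher and 10 lower with 15d-PGJ2-PC, against 20.5% and 16.7% of all tested genes (37.3% together). By class, 2 were lower and 2 higher among kinases and factors, 3 lower among transport and synthesis genes, and 4 lower among synthetases. Of the 20 genes that rose with 15d-PGJ2, 9 were lower with 15d-PGJ2-PC than with 15d-PGJ2, 1 was higher and 10 did not pass in the direct comparison. These 20 were picked by their values in the same 15d-PGJ2 libraries, so this count leans toward lower genes. The matching share of all tested genes that rose with 15d-PGJ2 was not counted.

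**Figure D3:**
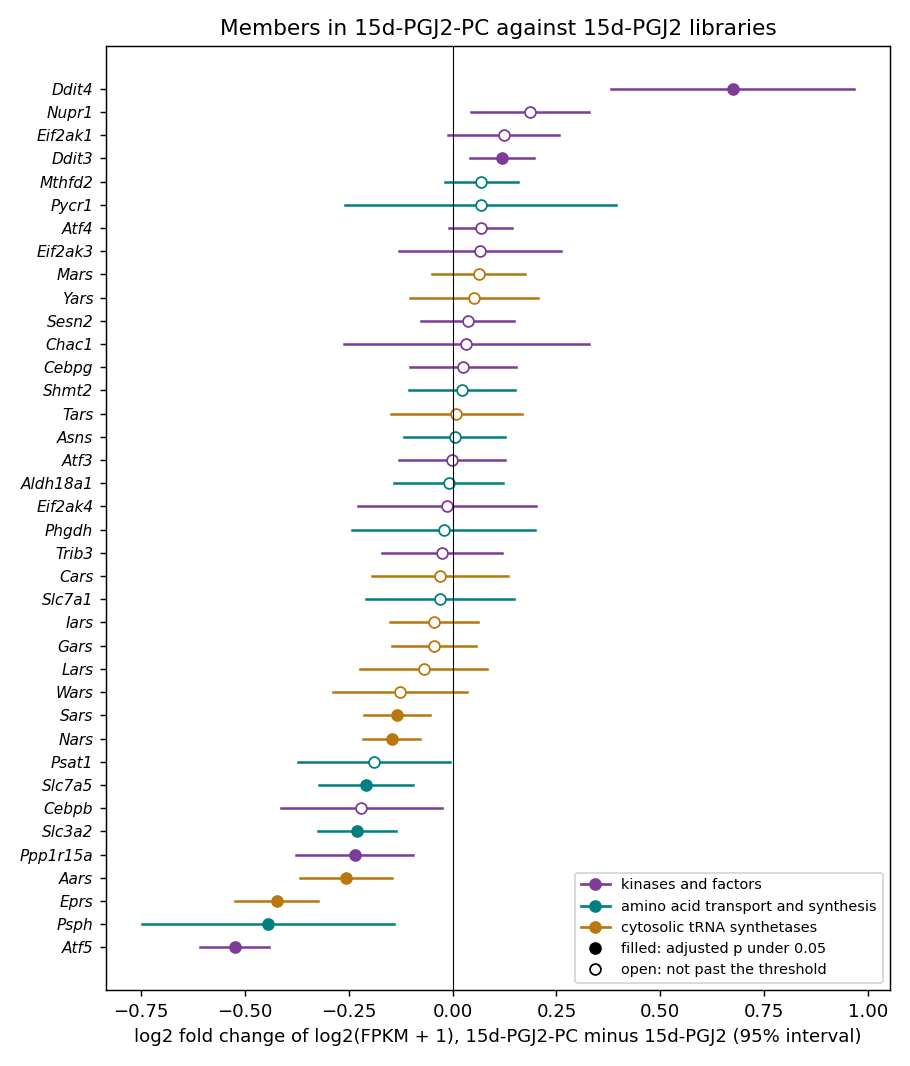
Log2 fold change of the 38 genes in 15d-PGJ2-PC against 15d-PGJ2 libraries (x axis, points, with 95% intervals as lines), ordered by size and coloured by class; filled points passed at an adjusted p under 0.05. Atf5, Psph and Eprs lie farthest to the left and Ddit4 farthest to the right.

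Atf5 differed most among the genes lower with 15d-PGJ2-PC, at -0.52 (95% interval -0.61 to -0.44, adjusted p = 9.15e-06). Eprs differed by -0.42 (-0.52 to -0.32, adjusted p = 9.04e-05), Aars by -0.26, Nars by -0.15 and Sars by -0.13. Among transporters, Slc3a2 differed by -0.23 (-0.32 to -0.14, adjusted p = 0.00303) and Slc7a5 by -0.21 (-0.32 to -0.09, adjusted p = 0.0152). Ppp1r15a differed by -0.24 (-0.38 to -0.09, adjusted p = 0.0244) and Psph by -0.44 (-0.75 to -0.14, adjusted p = 0.0431). Ddit4 was higher with 15d-PGJ2-PC by 0.67 (0.38 to 0.97, adjusted p = 0.00442), and so was Ddit3, by 0.12 (0.04 to 0.20, adjusted p = 0.0332).

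Only 4 of these 11 calls (Atf5, Eprs, Aars and Ddit4) held under all 17 alternatives. The Ddit3 call was lost in 8, with adjusted p up to 0.132, among them both other scalings and the fits without 15d-PGJ2 replicate 1 (0.102) or 2 (0.1) or 15d-PGJ2-PC replicate 1 (0.0685) or 3 (0.114). The Psph call was lost in 7, with 15d-PGJ2 replicate 1 or 2 (0.0964 and 0.14) or 15d-PGJ2-PC replicate 1, 2 or 3 (0.107, 0.077 and 0.101) left out among them. Sars lost it in 5, without 15d-PGJ2 replicate 1, 2 or 3 (0.0522, 0.0503 and 0.0812) or 15d-PGJ2-PC replicate 1 (0.0936) and with no intensity trend (0.0791). Ppp1r15a lost it in 4, without 15d-PGJ2 replicate 2 or 3 (0.094 and 0.0808) or 15d-PGJ2-PC replicate 1 or 2 (0.0698 and 0.0863). Slc7a5 lost it without replicate 2 of either group (0.0639 and 0.0619), Slc3a2 with quantile normalization (0.0802) and Nars with no intensity trend (0.0536).

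For several of the genes that rose the compounds could not be told apart, and the intervals show by how much they could still differ. Trib3 differed by -0.03 (95% interval -0.17 to 0.12), Asns by 0.01 (-0.12 to 0.13), Atf3 by 0.00 (-0.13 to 0.13), Cars by -0.03 (-0.19 to 0.13) and Slc7a1 by -0.03 (-0.21 to 0.15). Atf4 itself differed by 0.07 (-0.01 to 0.14, adjusted p = 0.205), with 15d-PGJ2-PC the higher group, and its libraries overlapped. Cebpb, by -0.22 (-0.41 to -0.03), and Nupr1, by 0.19 (0.04 to 0.33), missed the threshold although their libraries did not overlap (adjusted p = 0.108 and 0.0662). Cebpb passed without control replicate 3 (0.00542) and in a fit of the 6 libraries of this comparison (0.00602), and Psat1 (-0.19, adjusted p = 0.143) passed without 15d-PGJ2 replicate 1 (0.0391).

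Other genes of the pathway were counted in lists of their own. Of 24 listed genes linked to ATF4 in the literature and not among the 38, 19 passed the filter and were tested. With 15d-PGJ2, 13 rose and 1 fell (median log2 fold change 0.60), against 22.2% and 25% of all tested genes. With 15d-PGJ2-PC, 10 rose and none fell (median 0.26), against 13.8% and 14.1%. Slc7a3 (0.08 to 0.40 FPKM in controls) and Slc6a9 (0.92 to 1.58) passed the filter only through treated libraries. Genes low in every group, such as Cth and Cbs, dropped out, so these counts and medians may lean toward genes that rose. In the direct comparison 9 were lower with 15d-PGJ2-PC and 1 was higher (median -0.255), against 8.3% and 12.3% of all tested genes. Several of them are also known targets of the antioxidant factor Nrf2. Sqstm1, the autophagy receptor p62, was at 1002, 1048 and 982 FPKM in the controls, 3133, 3357 and 3329 with 15d-PGJ2 and 2254, 2229 and 2316 with 15d-PGJ2-PC. Slc7a11, the cystine importer that pairs with Slc3a2, averaged 26.6, 61.1 and 36 FPKM in control, 15d-PGJ2 and 15d-PGJ2-PC libraries. The difference in Slc7a11 between the compounds was -0.75 on the log2 scale (adjusted p = 4.19e-06), and that in Slc3a2 was -0.23.

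The stress cytokine gene Gdf15 rose from 117 ± 10.4 to 344 ± 25.1 and 268 ± 2.89 FPKM. Among other transporters, Slc38a2, which imports small neutral amino acids, rose from 34.1 to 60.0 and 52.4 FPKM, and the glycine transporter Slc6a9 from 1.14 ± 0.38 to 6.69 ± 0.93 and 2.91 ± 0.15. Slc1a4 averaged 7.42, 12.5 and 7.75 FPKM and rose with 15d-PGJ2 (adjusted p = 0.00032) but did not pass with 15d-PGJ2-PC (0.739), and its direct difference of -0.62 passed (adjusted p = 0.00181). Jdp2, a repressor of the AP-1 family, rose from 23.9 to 43.4 and 40.1 FPKM, with no call between the compounds (adjusted p = 0.24).

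**Figure D4:**
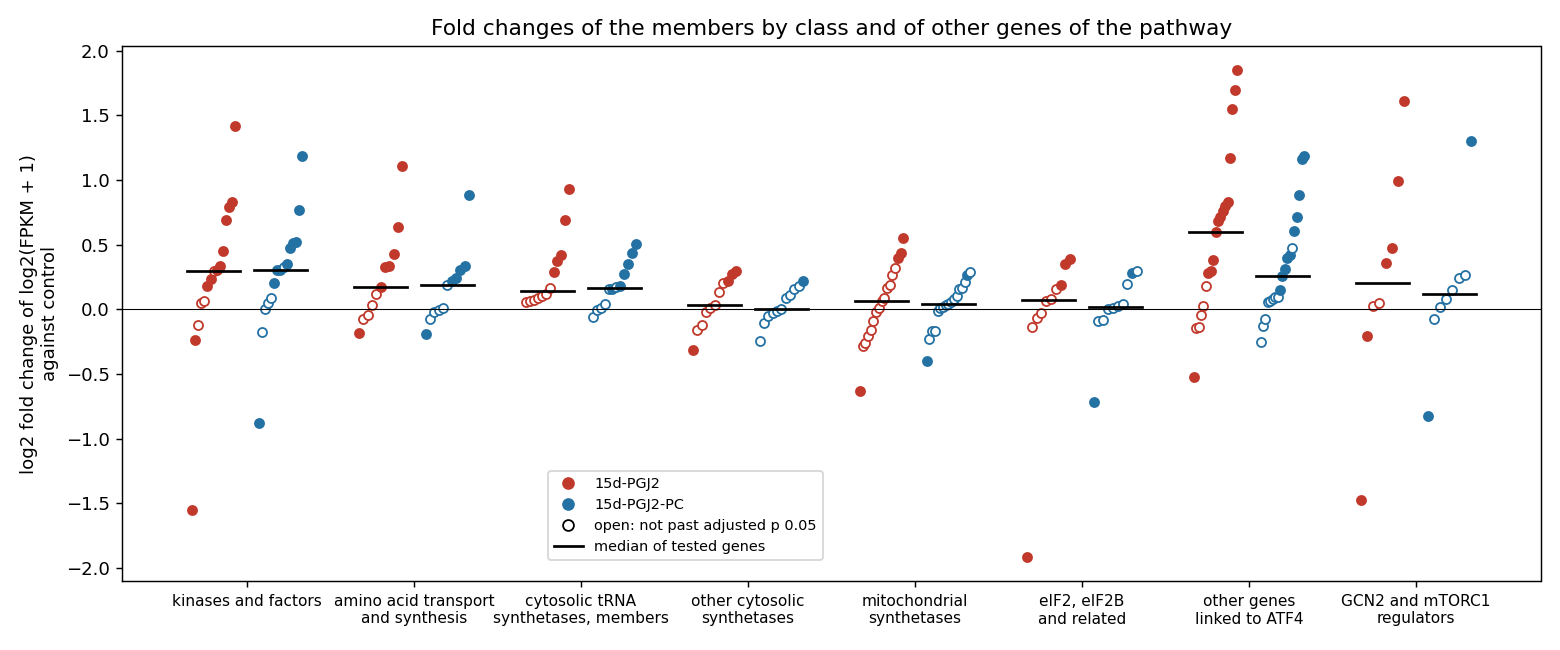
Log2 fold change against control (y axis) of each tested gene, for the 3 classes of the 38 genes and 5 further lists (x axis); red is 15d-PGJ2, blue is 15d-PGJ2-PC, open points did not pass and bars are medians. Other genes linked to ATF4 have the highest median with 15d-PGJ2 (0.60), and the lists of remaining synthetases centre near 0.

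The remaining tRNA synthetase genes were counted in the same way, with no test against the 12 above. Over all tested genes, 22.2% rose and 25% fell with 15d-PGJ2, and 13.8% and 14.1% with 15d-PGJ2-PC. The counts of both lists below lie near or under these shares. Of 11 further genes of cytosolic synthetases and their scaffold proteins, 3 rose and 1 fell with 15d-PGJ2, and 1 rose with 15d-PGJ2-PC (median log2 fold change 0.04 and 0.00). Vars fell from 30.4 ± 0.51 to 24.3 ± 1.81 FPKM with 15d-PGJ2 and averaged 28.2 with 15d-PGJ2-PC, while Farsa rose from 23.6 to 28.6 and 27.5. Rars averaged 30.2, 35.4 and 32.6 FPKM and the scaffold gene Eef1e1 14.8, 18.4 and 16.5, both called with 15d-PGJ2 and with no call between the compounds (adjusted p = 0.279 and 0.389). Of 17 synthetase genes of mitochondria, 3 rose and 1 fell with 15d-PGJ2, and 1 rose and 1 fell with 15d-PGJ2-PC (median 0.07 and 0.04). Iars2 rose from 14.6 to 19.6 and 17.8 FPKM. Fars2 was at 8.89, 13.5 and 9.20 FPKM and Ears2 at 1.94, 2.96 and 2.28, both called with 15d-PGJ2. Between the compounds Fars2 passed (adjusted p = 0.00611) and Ears2 did not (0.181).

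Upstream of ATF4, 10 genes of eIF2, its exchange factor eIF2B and related proteins were counted. Over all tested genes, 22.2% rose and 25% fell with 15d-PGJ2, and 13.8% and 14.1% with 15d-PGJ2-PC. Of the 10, 3 rose and 1 fell with 15d-PGJ2, and 1 rose and 1 fell with 15d-PGJ2-PC (median 0.07 and 0.02). The gene that fell was Eif2ak2, the kinase PKR, which interferon induces. It was at 33.6, 33.6 and 38.8 FPKM in the controls, 7.96, 8.5 and 9.39 with 15d-PGJ2 and 20.1, 21.4 and 21.7 with 15d-PGJ2-PC. It was 4.10-fold lower with 15d-PGJ2 (adjusted p = 1.24e-08) and 1.68-fold lower with 15d-PGJ2-PC (adjusted p = 5.09e-05), and the direct difference of 1.20 passed (adjusted p = 4.91e-06). None of the other 3 kinase genes moved by more than 0.24 on the log2 scale. Eif2s2, the β subunit of eIF2, rose from 64.0 to 81.8 and 77.9 FPKM, and the eIF2B genes Eif2b3 (6.17, 8.34 and 7.74 FPKM) and Eif2b2 (20.6, 23.6 and 21.2) were called with 15d-PGJ2.

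Among 8 regulators of GCN2 and mTORC1, 4 rose and 2 fell with 15d-PGJ2, and 1 rose and 1 fell with 15d-PGJ2-PC (median 0.20 and 0.12). The shares over all tested genes were 22.2% and 25% with 15d-PGJ2, and 13.8% and 14.1% with 15d-PGJ2-PC. Impact, an inhibitor of GCN2 activation, was at 31.6, 30.7 and 33.9 FPKM in the controls, 90.2, 104 and 107 with 15d-PGJ2 and 81.0, 79.4 and 80.9 with 15d-PGJ2-PC. It rose 3.12-fold and 2.51-fold (adjusted p = 1.04e-08 and 2.12e-07). Sesn1, a p53 and FoxO target related to Sesn2, fell from 65.1 ± 1.93 to 22.9 ± 2.38 and 36.4 ± 1.00 FPKM, in the same order of groups as Ddit4. Sesn3 averaged 1.88, 4.62 and 2.37 FPKM and the mTORC1 scaffold gene Rptor 11.1, 15.8 and 12.4, both called with 15d-PGJ2 and not with 15d-PGJ2-PC, and both were lower with 15d-PGJ2-PC than with 15d-PGJ2 (adjusted p = 0.0194 and 0.00946).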

How the data were processed

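RNA of 9 libraries was extracted with Trizol and prepared with Illumina's TruSeq RNA kit, per the labels' protocols. The authors deposited 1 table of FPKM values, per the file headers; the submitters' processing notes name BWA and build mm10. The version of BWA and the read counter were not given in the sources used here. All sample columns were used as deposited. Symbols turned into dates (23) were restored by Entrez number. Coordinates are from RefSeq for GRCm38.p6, the assembly that mm10 names.

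The value of 1 read was taken from steps between low values of 107 short genes (tolerance 0.06; quartiles 3.99 to 5.47 M reads per library), so it is approximate; PCR duplicates could not be removed. The 11309 genes that reached 1 FPKM in 3 or more libraries were tested on log2(FPKM + 1) with limma 3.58.1 in R 4.3.3 (intensity trend, 2-sided, all 9 libraries, no covariate), with Benjamini-Hochberg adjustment over all tested genes of a contrast; fold changes of genes near 1 FPKM are understated on that scale. The script was tested on simulated data. The 38 genes were described whatever their result, and of each further list the up to 4 genes with the smallest p in a comparison were named, except where a gene or sequence is not reported here. The genes, lists and classes were chosen with earlier results of these data known. Same-numbered libraries correlated at -0.04 to 0.05 in their deviations from group means, so numbers were not treated as pairs. Pseudocount, filter, scaling, trend, samples and block were varied, and each library was left out in turn.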

Additional observations from a re-analysis of the deposited data

How the results depend on the processing

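The 56 called values of the 38 genes over the 3 comparisons had 952 alternative values, of which none changed sign and 54 lost the call. These came from 17 alternative fits per comparison, each giving all genes at once, so they are not independent. Calls held under all 17 alternatives for 20 of 23 genes with 15d-PGJ2, 18 of 22 with 15d-PGJ2-PC and 4 of 11 between the compounds. Among the alternatives of values that were not called, 12 gained a call and 54 changed sign without one. With 15d-PGJ2, quantile normalization called 8 synthetases in place of 5. Between the compounds, 1 gene was higher in place of 2 with no filter, quantile normalization, equal library medians or no intensity trend, and 2 synthetases were called in place of 4 with no intensity trend. Leaving out 1 library gave 1 to 3 fallen genes with 15d-PGJ2 and 1 to 2 with 15d-PGJ2-PC. Between the compounds it gave 1 to 2 higher genes, 5 to 10 lower genes (5 without 15d-PGJ2 replicate 2), 2 to 5 called kinases and factors and 1 to 3 called transport and synthesis genes. With the replicate block, 20 genes rose and 2 fell with each compound, and 2 were higher and 9 lower between the compounds; it ended the call of Eif2ak3 (adjusted p = 0.0624) and no other. At about 5.28 M reads, Pycr1 had 14 to 22 reads in a library, the fewest of the 38 genes.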
